A study of Mus musculus with 20 samples.

Results

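The 10 genes described here encode tenascins (Tnc, Tnxb), thrombospondins (Thbs1, Thbs2, Thbs4), periostin (Postn), SPARC and its relative SPARC-like 1 (Sparc, Sparcl1), fibronectin (Fn1) and the proteoglycan decorin (Dcn). They were found by gene symbol, 10 of the 45777 genes in the table and 10 of the 18706 that were tested, and they were chosen from the levels of these same mice across the 4 groups. Their levels and differences are therefore given as a description, without p-values.

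Uteri of wild-type B6D2F1 female mice aged 8 to 12 weeks were collected at 18:00 on day 3.5 after mating, before embryo attachment, and polyadenylated RNA was sequenced in 1 library per mouse, with 5 mice in each of 4 groups. Control mice received no drug. Mice of the IF (implantation failure) group received low-dose RU486, an antagonist of the progesterone and glucocorticoid receptors, under the skin on the morning of day 3.5. Mice of the PBMC and PBMC-hCG groups received the same RU486 and, on day 1.5, peripheral blood mononuclear cells of non-pregnant mice into the uterus; only the cells of the PBMC-hCG group were cultured in the presence of human chorionic gonadotropin (hCG). All 3 other groups thus share RU486, no group received cells without RU486, and a difference from control mice cannot be assigned to the cells alone. The cells were injected in culture medium, IF mice received no injection, and no group here received medium alone. Cells, medium and injection therefore cannot be told apart in a comparison with IF or control mice. RNA came from unsorted uterine tissue, in which fewer cells of a type and less RNA per cell cannot be told apart.

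Matricellular proteins are secreted into the extracellular matrix, where they act less as scaffold than as signals: they bind integrins and other receptors, tune cell adhesion and hold or release growth factors. Many are low in resting adult tissue and induced in remodelling tissue, and tenascin-C is known from the uterine stroma beneath the epithelium at the time embryos attach. Fibronectin and decorin are structural neighbours of this group, an adhesive glycoprotein and a small leucine-rich proteoglycan that binds collagen fibrils and TGF-beta.

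Values are TPM, transcript abundances scaled for transcript length and to a fixed total in each library, so that the number of reads behind a value is unknown. Between 22702 and 24097 genes were listed above 0 TPM per library. Control replicate 2 stood apart from its group: its correlation with the other control libraries on the log2 scale had a median of 0.963, against 0.982 to 0.987 for the other 4. Its summed TPM of the adipose markers Adipoq, Plin1, Fabp4 and Cfd was 582, against medians of 5.39 to 7.73 in the 4 groups, and IF replicate 5 followed at 134. Values without control replicate 2 are given where they matter. Of the markers that name a uterus, those of muscle, stroma, epithelium and endothelium were present in every library, while of 5 ovary and oviduct markers Cyp19a1 and Fshr were listed at 0 in all 20 and Star (2.35 to 8.57 TPM), Inha (3.05 to 15.4 TPM) and Ovgp1 (4.76 to 25.6 TPM) were above 0 in all 20.

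On the TPM scale, Dcn (mean of 2935 TPM over the 20 libraries) and Sparc (2707 TPM) were the most abundant, followed by Sparcl1 (994 TPM), Fn1 (399 TPM), Postn (228 TPM), Thbs1 (132 TPM), Tnc (73.6 TPM), Tnxb (51.3 TPM), Thbs2 (13.7 TPM) and Thbs4 (6.35 TPM). The 10 genes together made up 0.450% to 0.655% of all TPM in control mice and 0.760% to 0.806% in IF mice. In PBMC and PBMC-hCG mice their share was 0.751% to 0.847% and 0.788% to 0.854%, so every library given RU486 held a larger share than every control library. A summed share rests mostly on the abundant genes and does not show a rise of each. The mean of Dcn was 1750 TPM in control and 3146 TPM in IF mice, that of Sparc 2603 and 2773 TPM, and that of Postn 329 and 208 TPM. Neighbours in the order of abundance were not always apart: Dcn exceeded Sparc in 15 of 20 libraries and Tnc exceeded Tnxb in 9 of 20.

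A gene was called where the adjusted p-value of limma was under 0.05, with all 4 groups in 1 fit and Benjamini-Hochberg adjustment over the 18706 tested genes. Between IF and control mice 5 of the 10 genes were called, 4 higher (Tnc, Thbs1, Fn1 and Dcn) and 1 lower (Postn), where 13.4% of all tested genes were called higher and 8.53% lower. Because the genes were chosen on these levels, nothing is read from their count. The same holds where groups are said below not to overlap. The share of all tested genes with groups fully apart was not computed.

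**Figure D1:**
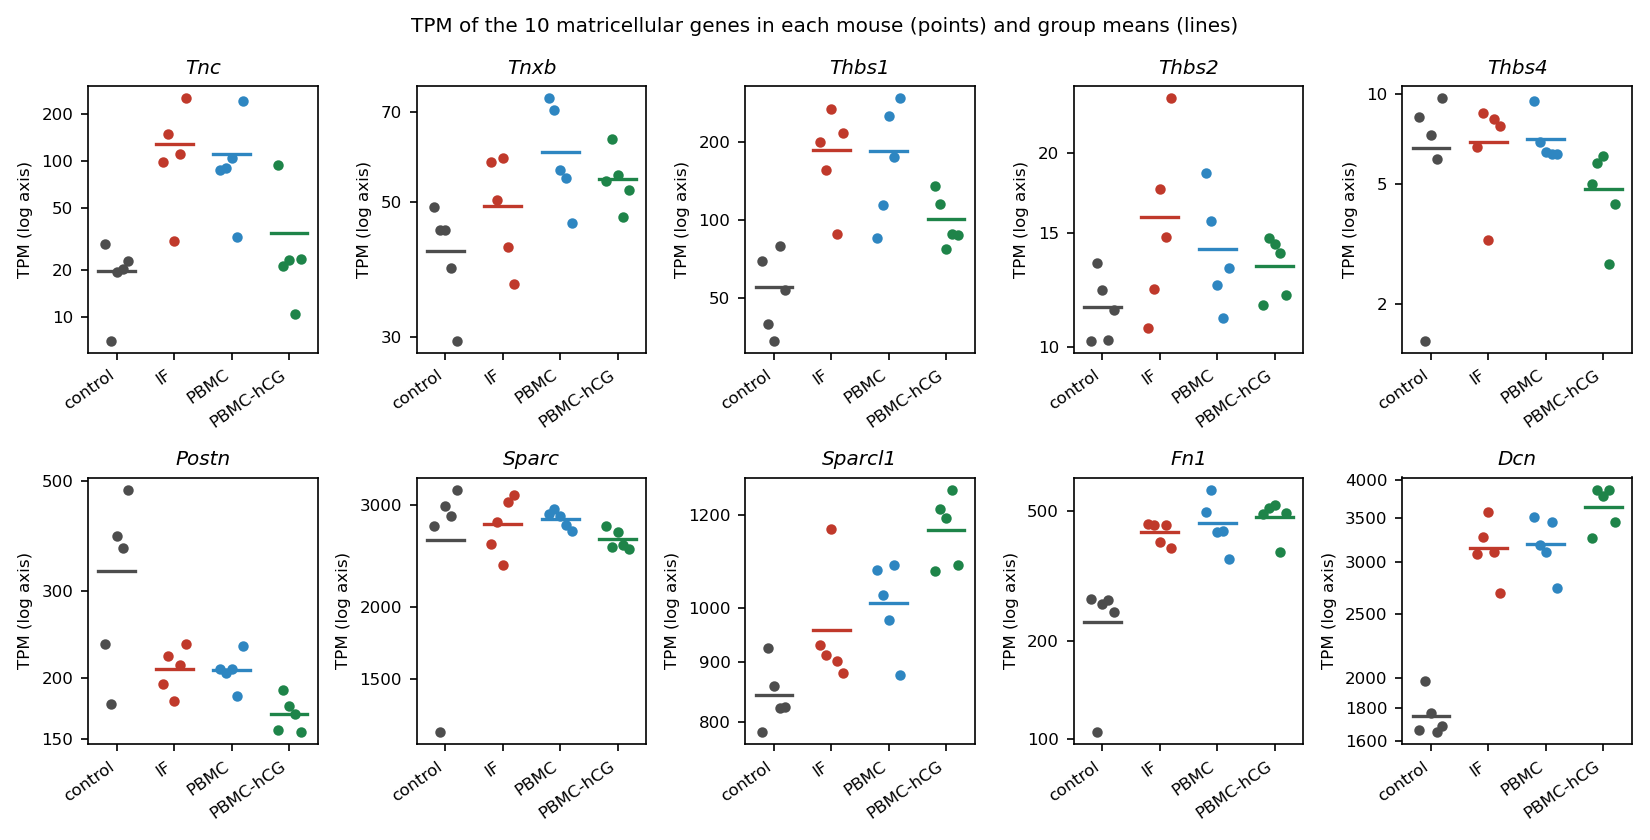
TPM of the 10 genes (log axis, one panel per gene) in each of the 20 mice by group, with points for mice and lines for group means. All 5 IF mice lie above all 5 control mice for Tnc, Thbs1, Fn1 and Dcn, and 4 of the 5 PBMC-hCG mice lie within the control range for Tnc. The genes were chosen on these levels, and the share of all tested genes with groups so apart was not computed.

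Tnc, on chromosome 4 (GRCm38, 63959785 to 64047015, minus strand), encodes tenascin-C, a large glycoprotein of remodelling matrix. The 300 bases around its start, from RefSeq (GRCm38.p6), are shown because Tnc had the largest difference of the 10 genes. The window holds both listed start sites (64046936 and 64047015), and capitals mark matches to TATAAA, the GC box GGGCGG and the SMAD motif CAGACA on either strand.
Tnc chr4:64046887-64047186, minus strand: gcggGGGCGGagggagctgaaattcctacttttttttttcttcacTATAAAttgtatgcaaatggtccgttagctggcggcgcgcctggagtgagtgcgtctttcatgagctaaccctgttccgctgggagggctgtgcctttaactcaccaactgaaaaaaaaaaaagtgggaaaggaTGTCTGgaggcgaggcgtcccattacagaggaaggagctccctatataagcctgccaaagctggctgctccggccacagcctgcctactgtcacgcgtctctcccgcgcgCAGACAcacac
The primer pair of the study's PCR for Tnc is shown because it marks the stretch of the transcript that assay reads, while TPM covers the whole gene.
Tnc first primer: tggtccatctggtcttctgatagc
Tnc second primer: ccagacactgtgcgtgtaacttc
They lie at 63972767 to 63972790 and at 63971274 to 63971296 on chromosome 4, in neighbouring exons (17 and 18 of 25, or 18 and 19 of 26), and bound a product of 141 bases in 3 of the 4 GENCODE transcripts.

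Tnc was low in control mice, at 29.4, 7.03, 19.4, 20.1 and 22.8 TPM. In IF mice it was at 98.6, 149, 30.6, 110.3 and 254 TPM. Every IF mouse lay above every control mouse, although IF replicate 3 was just above the highest control. The means were 19.7 ± 8.13 and 129 ± 82.1 TPM (SD, n = 5 each), 6.51-fold apart, and the difference on the log2(TPM + 0.1) scale was 2.54 (SE 0.60). Without control replicate 2, the lowest library for Tnc, it was 2.21 (SE 0.61).

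PBMC mice held Tnc at 87.8, 90.9, 104.6, 32.5 and 242 TPM. Their range was close to that of the IF mice, and the log2 difference of PBMC minus IF was -0.19 (SE 0.60). PBMC-hCG mice held it at 94.2, 21.1, 23.2, 10.4 and 23.6 TPM. In this group 4 of the 5 mice were at control levels and below every IF mouse, while replicate 1 was among the IF values. The log2 difference of PBMC-hCG minus IF was -2.02 (SE 0.60), and -2.49 without PBMC-hCG replicate 1. That of PBMC-hCG minus control was 0.52 (SE 0.60), and 0.06 without the same library, and that of PBMC-hCG minus PBMC was -1.83 (SE 0.60), which was not called.

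Tnxb, on chromosome 17 (34660453 to 34719815, plus strand), encodes tenascin-X, the tenascin of collagen-rich connective tissue. Its levels in control mice were 49.1, 45.0, 44.9, 39.0 and 29.6 TPM, and in IF mice 57.9, 50.2, 58.8, 42.2 and 36.6 TPM. The groups overlapped, with a log2 difference of 0.24 (SE 0.15). Tnxb was at 73.8, 70.5, 56.3, 54.7 and 46.1 TPM in PBMC mice and in PBMC-hCG mice at 54.0, 63.4, 55.3, 47.2 and 52.1 TPM. The highest levels were those of PBMC mice, 0.54 (SE 0.15) above control on the log2 scale, and the ranges still overlapped. The 2 tenascins thus did not share a pattern, and Tnxb was not called in PBMC-hCG minus IF (0.16, SE 0.15). The other tenascins of the family, Tnr and Tnn, were not above 0 TPM in every library and were not tested.

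Thbs1, on chromosome 2 (118111876 to 118127133, plus strand), encodes thrombospondin 1, which inhibits vessel growth through CD36 and CD47 and activates latent TGF-beta. In control mice it was at 69.5, 40.0, 34.4, 79.4 and 53.8 TPM, and in IF mice at 200.3, 156, 268, 88.5 and 217 TPM. The groups did not overlap, with IF replicate 4 closest to the controls. The means were 55.4 ± 19.1 and 186 ± 67.6 TPM (SD, n = 5 each), a log2 difference of 1.72 (SE 0.34), and 1.62 without control replicate 2.

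In PBMC mice Thbs1 was at 85.6, 114, 252, 176 and 296 TPM, a log2 difference of -0.07 (SE 0.34) from IF mice. PBMC-hCG mice were at 135.9, 116, 77.5, 88.5 and 87.9 TPM. Their mean of 101 ± 24.1 TPM (SD, n = 5) lay between the control and IF means. The log2 difference of PBMC-hCG minus IF was -0.82 (SE 0.34), and was not called. That of PBMC-hCG minus control was 0.91 (SE 0.34) and was called, but the call was lost without control replicate 2, 3 or 5, or without PBMC-hCG replicate 1, 2, 4 or 5. With all mice it was also lost after libraries were scaled to the same median (0.84) and with the replicate number as a block. The same held without a variance trend and without a filter beyond a value above 0.

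Thbs2, on chromosome 17 (14665500 to 14694262, minus strand), encodes thrombospondin 2, an anti-angiogenic relative of thrombospondin 1. It was at 10.2 to 13.5 TPM (median 11.4) in control mice and 10.7 to 24.3 TPM (median 14.8) in IF mice. In PBMC mice it was at 11.1 to 18.6 TPM (median 13.2), and in PBMC-hCG mice at 11.6 to 14.7 TPM (median 14.0). All 4 ranges overlapped, and Thbs2 was called in no comparison. Only without IF replicate 1 was it called between IF and control mice, at 0.54 against 0.41 (SE 0.18) with all mice. Without IF replicate 5, the highest mouse, the difference was 0.24.

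Thbs4, on chromosome 13 (92751586 to 92794818, minus strand), encodes thrombospondin 4, a pentameric thrombospondin best known from tendon and heart. It was at 8.37, 1.52, 7.28, 6.07 and 9.66 TPM in control mice and at 6.67, 8.61, 3.28, 8.21 and 7.78 TPM in IF mice. PBMC mice were at 9.47, 6.90, 6.38, 6.29 and 6.33 TPM, and PBMC-hCG mice at 5.02, 5.89, 6.19, 2.73 and 4.30 TPM. Every PBMC-hCG mouse lay below every PBMC mouse, with a log2 difference of -0.58 (SE 0.38) that was not called. The difference of IF minus control was 0.22 (SE 0.38) and became -0.24 without control replicate 2, where Thbs4 was lowest. Without that library PBMC-hCG minus control was -0.72 and was called, against -0.27 (SE 0.38) with it. Of the relatives listed, Thbs3 was not called in any comparison (log2 difference of -0.14 in IF minus control), and Comp was not tested.

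Postn, on chromosome 3 (54359267 to 54391041, plus strand), encodes periostin, a protein of the fasciclin domain type that binds integrins and cross-links collagen. It was the member of the group that was lower after RU486, and the RefSeq promoter at the second of its listed starts (54361107) is shown for comparison with that of Tnc. The match to TATAAA, in capitals, begins 26 bases before that start.
Postn chr3:54360857-54361156, plus strand: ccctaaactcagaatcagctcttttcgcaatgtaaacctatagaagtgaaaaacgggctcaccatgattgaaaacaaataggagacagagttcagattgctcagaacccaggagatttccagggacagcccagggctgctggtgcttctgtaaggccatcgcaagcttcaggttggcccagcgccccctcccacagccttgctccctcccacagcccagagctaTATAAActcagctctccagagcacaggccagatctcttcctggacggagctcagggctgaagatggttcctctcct

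Postn was at 234, 177, 387, 366 and 481 TPM in control mice and at 194, 222, 179, 212 and 234 TPM in IF mice. The 3 highest control mice exceeded all IF mice, whereas control replicate 1 was level with the highest IF mouse and control replicate 2 lay below the lowest. The log2 difference was -0.58 (SE 0.19), and -0.78 without control replicate 2. The call was lost without control replicate 3, 4 or 5 or without IF replicate 1 or 3. In PBMC mice Postn was at 208, 205, 208, 183 and 232 TPM and PBMC-hCG mice at 157, 188, 175, 169 and 155 TPM. The PBMC-hCG level was the lowest of the 4, -0.87 (SE 0.19) from control on the log2 scale and -0.30 (SE 0.19) from IF, which was not called. With only IF and PBMC-hCG mice in the fit, the latter difference was called.

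The gene whose pattern was most like that of Postn over the 20 libraries was Actg2, an actin of smooth muscle, with a Pearson r of 0.94 on the log2 scale and 0.89 after group means were taken off. Actg2 was at 551 to 2234 TPM in control mice, 615 to 1010 TPM in IF mice, 686 to 854 TPM in PBMC mice and 501 to 681 TPM in PBMC-hCG mice. Summed over 7 myometrial markers, the level was 6190 to 11453 TPM in control mice, 6250 to 7716 TPM in IF mice and 5026 to 6339 TPM in PBMC-hCG mice. The medians were 8371, 6695 and 5698 TPM, and control replicate 2 was the lowest control for Actg2 and for the sum. None of these markers was at 0 TPM, 1 of 7 (Acta2, adjusted p = 0.0367 in limma) fell between IF and control mice, and 5 of 7 fell between PBMC-hCG and control mice. The part of muscle in the Postn difference was not tested.

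Sparc, on chromosome 11 (55394159 to 55420080, minus strand), encodes a calcium-binding protein that loosens cell adhesion and chaperones collagen, and Sparcl1, on chromosome 5 (104079108 to 104114088, minus strand), encodes its relative SPARC-like 1 (hevin). The RefSeq promoter of Sparc is shown because, of the 6 genes matched in the promoter table, only it and Tnxb held the half-site AGAACA of the progesterone and glucocorticoid receptors. Capitals mark AGAACA and CAGACA on either strand, and AGAACA matched at 14 and, on the other strand, at 78 bases before the start.
Sparc chr11:55420031-55420330, minus strand: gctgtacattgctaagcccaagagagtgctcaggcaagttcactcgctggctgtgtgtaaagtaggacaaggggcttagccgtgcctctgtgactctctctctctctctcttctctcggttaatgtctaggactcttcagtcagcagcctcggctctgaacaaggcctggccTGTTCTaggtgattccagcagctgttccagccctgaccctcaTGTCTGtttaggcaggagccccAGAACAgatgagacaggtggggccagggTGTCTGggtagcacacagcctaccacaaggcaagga

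Sparc was at 2757, 1214, 2990, 2867 and 3185 TPM in control mice and 2566, 2798, 2356, 3033 and 3113 TPM in IF mice. PBMC mice were at 2895, 2952, 2869, 2770.1 and 2706 TPM, and PBMC-hCG mice at 2760.0, 2539, 2690.4, 2558 and 2516 TPM. Apart from control replicate 2 all libraries lay within a narrow band, and Sparc was called in no comparison. The log2 difference of IF minus control was 0.16 (SE 0.18), and -0.09 (SE 0.07) without control replicate 2.

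Sparcl1 differed from Sparc. It was at 784, 924, 858, 822 and 824 TPM in control mice and at 931, 912, 1168, 901 and 880 TPM in IF mice, where replicate 3 stood far above the others. PBMC mice were at 1079, 1026, 977, 1088 and 877 TPM, and PBMC-hCG mice at 1075, 1215, 1193, 1263 and 1088 TPM. The PBMC-hCG mice lay above all control mice, with a log2 difference of 0.47 (SE 0.08). The log2 difference of IF minus control was 0.18 (SE 0.08) and was not called, and that of PBMC-hCG minus IF was 0.29 (SE 0.08) and was called.

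Fn1, on chromosome 1 (71585473 to 71653280, minus strand), encodes fibronectin, the main ligand of the integrin made of the Itga5 and Itgb1 products. It was at 268, 105, 260.2, 266 and 246 TPM in control mice and at 456, 452, 403, 454 and 385 TPM in IF mice. The groups did not overlap, and the log2 difference was 0.98 (SE 0.20), or 0.72 (SE 0.11) without control replicate 2, which was far below the other controls. PBMC mice were at 497, 581, 431, 433 and 356 TPM, and PBMC-hCG mice at 490.2, 512, 522, 374 and 493 TPM. Fn1 stayed above every control mouse in both groups given cells, by 1.06 and 1.13 on the log2 scale (SE 0.20 each). Its difference from IF mice was 0.08 for PBMC and 0.15 for PBMC-hCG mice (SE 0.20 each).

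Dcn, on chromosome 10 (97479500 to 97518163, plus strand), had the smallest SE relative to its difference between IF and control mice. It was at 1666, 1978, 1767, 1653 and 1688 TPM in control mice and at 3084, 3279, 3577, 3104 and 2688 TPM in IF mice. The groups were well apart, by 0.84 on the log2 scale (SE 0.09). PBMC mice held Dcn at 3518, 3184, 3108, 3452 and 2735 TPM and PBMC-hCG mice at 3259, 3857, 3782, 3866 and 3446 TPM. The PBMC-hCG level was the highest, 1.06 (SE 0.09) above control, and 0.21 (SE 0.09) above IF, which was not called. Control mice held more Sparc than Dcn in 4 of 5 libraries, with a median Dcn/Sparc ratio of 0.591. The ratio exceeded 1 in 4 of 5 IF, 5 of 5 PBMC and 5 of 5 PBMC-hCG libraries, with medians of 1.17, 1.08 and 1.41.

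Markers of the main cell types moved in part with Fn1 and Dcn. Of 7 stromal markers 2 rose and none fell between IF and control mice. Their summed levels were 3782 to 8843 TPM in control (median 8715) and 6454 to 8935 TPM in IF mice (median 7896), which overlap. The lowest stromal sum in control mice was that of replicate 2. Of 6 endothelial markers 5 rose, with summed levels of 381 to 471 TPM in control and 516 to 594 TPM in IF mice, which do not overlap. Epithelial markers summed to 523 to 916 TPM in control (median 641.5) and 782 to 1000 TPM in IF mice (median 808), and 4 of 7 rose and 1 fell. The highest epithelial sum in control mice was that of replicate 2. None of these markers was at 0 TPM, and their part in the results was not tested. Of the other lists, 2 of 3 pericyte, 2 of 4 macrophage and 1 of 4 adventitial fibroblast markers rose, 1 pericyte and 1 of 3 tested ovary or oviduct markers fell, and none of the tested markers of mesothelium (4), lymphocytes (3), platelets (2), red cells (3) or adipose tissue (1) was called.

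**Figure D2:**
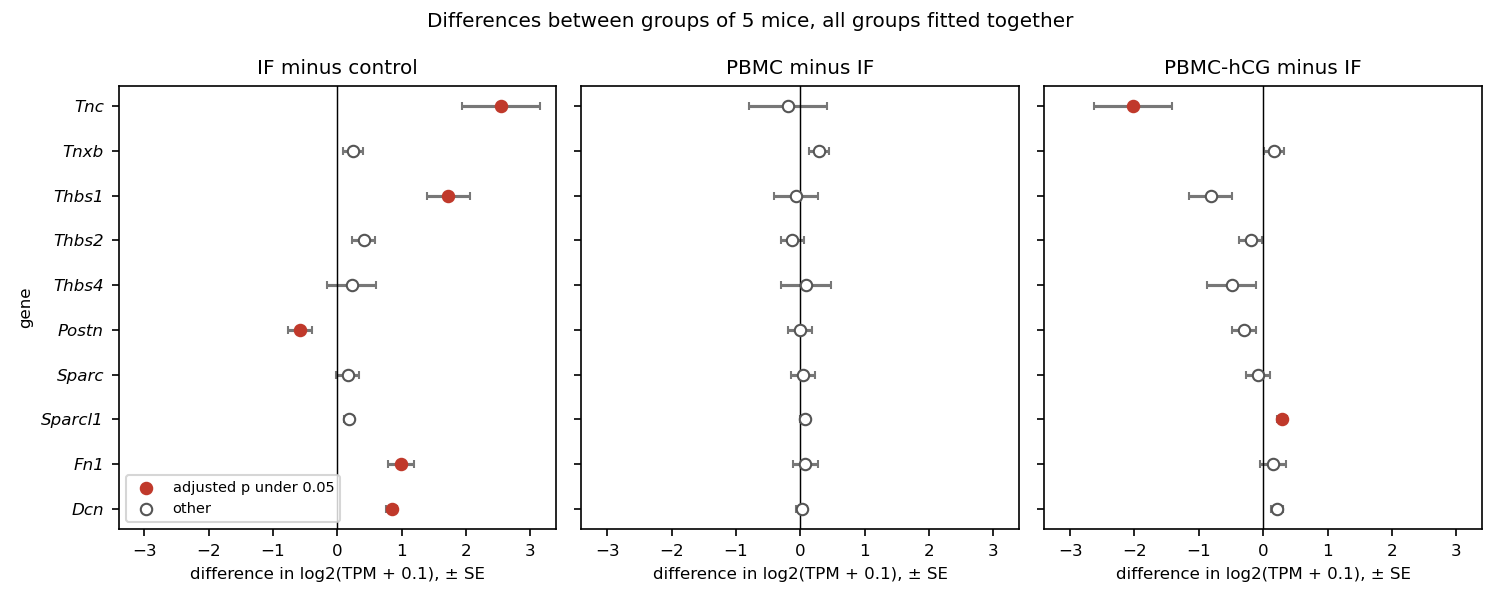
Differences in log2(TPM + 0.1) for the 10 genes in IF minus control, PBMC minus IF and PBMC-hCG minus IF (5 mice per group). Points are fitted differences with bars of 1 SE, and filled points mark adjusted p-values under 0.05 by limma. The middle panel has no filled point, and Tnc lies at 2.54 in the first and -2.02 in the last.

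The 2 treatments with cells were compared with the IF group and with each other. PBMC minus IF gave no called member, where 0% of all tested genes were called higher and 0% lower by limma, 1271 genes and none of the 10 had a raw p-value under 0.05. The members' log2 differences there lay between -0.19 (Tnc) and 0.30 (Tnxb), each within 2 SE. PBMC-hCG minus IF gave 2 called members, Tnc lower and Sparcl1 higher, against 7.61% of tested genes called higher and 5.99% lower. These calls were fragile: leaving out any of IF replicates 2, 4 or 5 or PBMC-hCG replicates 2, 3, 4 or 5 left no member called, and at most 34 of the 18706 genes (0.182%). In the direct comparison of PBMC-hCG with PBMC no member was called by limma, with 0.00535% of genes called higher and 0.00535% lower (1 gene each), while 3024 genes and 4 members had a raw p-value under 0.05. From IF to PBMC-hCG mice 3 of 4 mesothelial, 1 of 7 stromal (Pdgfra), 1 of 7 epithelial (Krt8) and 1 of 6 endothelial (Emcn) markers rose, and 1 of 4 adventitial fibroblast (Pi16) and 1 of 3 red cell (Hbb-bs) markers fell. Their part in the results was not tested.

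Against the control group, which these comparisons share with IF minus control, 7 members were called in PBMC mice, 6 higher (Tnc, Tnxb, Thbs1, Sparcl1, Fn1 and Dcn) and 1 lower (Postn), where 12.8% of genes were called higher and 6.7% lower. In PBMC-hCG mice 5 were called, 4 higher (Thbs1, Sparcl1, Fn1 and Dcn) and 1 lower (Postn), against 20.2% of genes higher and 11.6% lower. The log2 difference of Tnc from control was 2.54 in IF, 2.35 in PBMC and 0.52 in PBMC-hCG mice (SE 0.60 each), and its difference between PBMC-hCG and PBMC mice was not called. In PBMC mice the calls of 3 genes rested on single mice: that of Tnxb was lost without control replicate 5 or PBMC replicate 1 or 2, that of Sparcl1 without control replicate 1, 4 or 5 or PBMC replicate 1, 2 or 4, and that of Postn without control replicate 3, 4 or 5 or PBMC replicate 1, 2, 3 or 4. In PBMC-hCG mice the call of Thbs1 was lost without single mice, as given for that gene, and Tnxb was called higher without control replicate 1 or 2 and Thbs4 lower without control replicate 2.

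Markers of several cell types moved in the same comparisons with control. In PBMC mice 5 of 6 endothelial, 4 of 7 epithelial, 3 of 7 stromal, 2 of 3 pericyte, 1 of 4 adventitial fibroblast and 1 of 4 mesothelial markers rose, and 1 of 3 tested ovary and oviduct markers (Ovgp1) fell. In PBMC-hCG mice 6 of 6 endothelial, 5 of 7 epithelial, 3 of 7 stromal, 2 of 3 pericyte, 2 of 4 mesothelial, 2 of 4 macrophage, 1 of 4 adventitial fibroblast and 1 of 3 tested lymphocyte markers rose. There 5 of 7 myometrial markers fell, as did 1 epithelial (Foxa2), 1 platelet (Pf4) and 1 ovary and oviduct marker (Ovgp1). The summed endothelial markers were at 381 to 471 TPM in control, 529 to 626 TPM in PBMC and 597 to 699 TPM in PBMC-hCG mice. The summed myometrial markers were at 6190 to 11453 TPM in control, 6053 to 7445 TPM in PBMC and 5026 to 6339 TPM in PBMC-hCG mice. Control replicate 2 was the lowest control, and the medians were 8371, 6953 and 5698 TPM. The part of these markers in the results was not tested.

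Mice of the same group differed widely in Tnc, from 4.19-fold between the lowest and highest control mouse to 9.10-fold in the PBMC-hCG group, and little in Sparc outside the control group (1.09-fold in PBMC to 1.32-fold in IF mice). The deviations from the group mean of Tnc ran against those of Sparcl1 (Pearson r = -0.88, Spearman rho = -0.85 over 20 libraries) and of Dcn (r = -0.86, rho = -0.80). Those of Sparcl1 and Dcn ran together (r = 0.89, rho = 0.90). The coefficients are -0.87 and -0.82 for Tnc and 0.88 for Sparcl1 with Dcn when the 2 libraries farthest from the median on the x axis are left out. The libraries share the fixed TPM total and the tissue, the genes were among 45 pairs compared, and the values are a description without a test. Sparc and Fn1 also deviated together (r = 0.84), but r was 0.50 without control replicate 2.

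**Figure D3:**
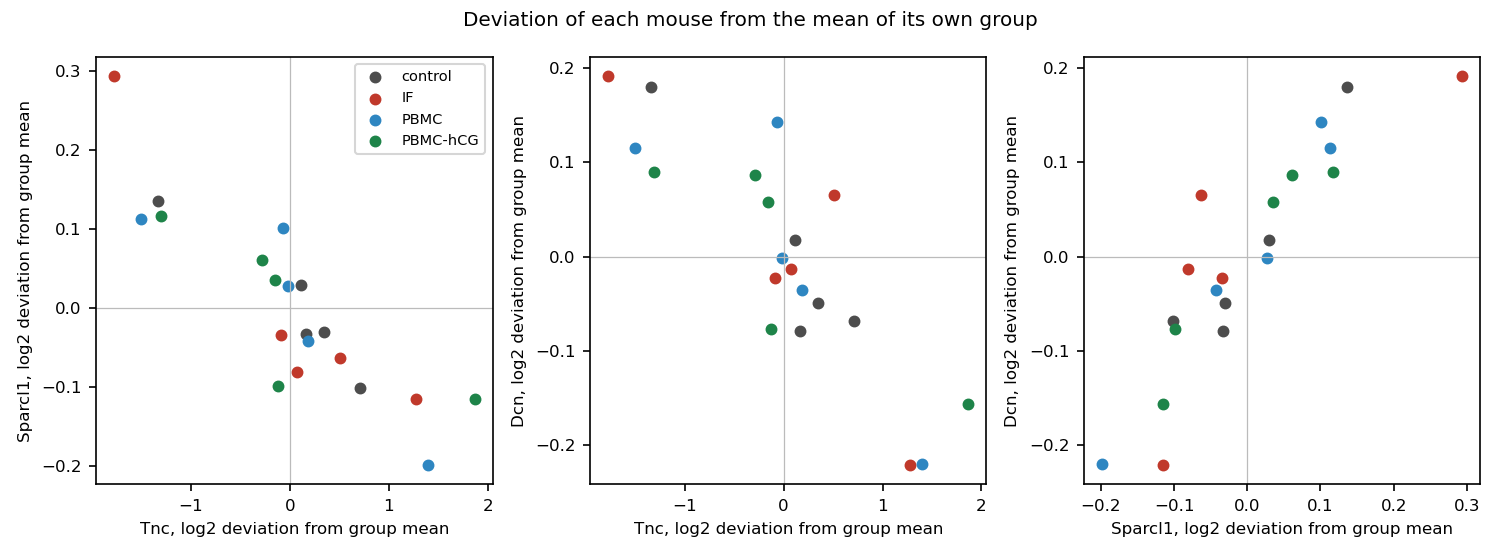
Deviation of each of the 20 mice from the mean of its own group in log2(TPM + 0.1), for Tnc against Sparcl1, Tnc against Dcn and Sparcl1 against Dcn, coloured by group. Mice with more Tnc than their group held less Sparcl1 (r = -0.88) and less Dcn (r = -0.86), while Sparcl1 and Dcn went together (r = 0.89).

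The genes most like each member over the 20 libraries, among tested genes with a mean of at least 1 TPM, are given with Pearson's r on the log2 scale and, in brackets, r after group means were taken off. For Tnc they were Rhoc (0.96 [0.91]), Srgap1 (0.96 [0.94]) and Fgf2 (0.95 [0.90]). Thbs1 was followed by Egr3 (0.94 [0.88]), Susd6 (0.93 [0.83]) and Prdm1 (0.92 [0.82]). These lists had no gene in common. Dcn was followed by Dapk2 (0.98 [0.91]), Rab5b (0.97 [0.86]) and Ctdsp2 (0.97 [0.80]), Fn1 by Nkain3 (0.96 [0.91]), Nid1 (0.96 [0.90]) and Mgat3 (0.96 [0.90]), and Sparcl1 by Fam8a1 (0.98 [0.94]), Selenop (0.98 [0.94]) and Trim34b (0.97 [0.94]). Nid1 encodes the basement membrane protein nidogen 1. Sparc was followed by Col1a2 (0.96 [0.97]), Nuf2 (0.95 [0.95]) and Spag5 (0.95 [0.96]), and Thbs4 by Tk1 (0.94 [0.96]), Rbm14 (0.93 [0.93]) and Col3a1 (0.93 [0.94]). Without control replicate 2 the r of Sparc with Nuf2 and Spag5 was 0.73 and 0.69. Postn was followed, after Actg2, by Gm7993 (0.91 [0.83]) and Pcna-ps2 (0.90 [0.85]), Tnxb by Sptbn1 (0.87 [0.88]), Rfx1 (0.87 [0.82]) and Vps9d1 (0.87 [0.82]), and Thbs2 by Cblb (0.77 [0.70]), Pex5 (0.76 [0.70]) and Ceacam1 (0.76 [0.68]).

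A list of 61 related genes (relatives of the members, other matrix glycoproteins and proteoglycans, and receptors) was compared in the same fit, of which 52 were tested. Between IF and control mice 19 rose and 5 fell, and the median log2 difference was 0.26, beside 0.02 over all tested genes. Of the 18 genes listed as receptors of the members, which include the chaperone gene Calr, 9 rose and 1 fell. Over all tested genes 13.4% rose and 8.53% fell.

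The largest change of the whole list was that of Cd36, the scavenger receptor through which thrombospondin 1 acts on vessels. It was at 44.2, 36.0, 20.2, 46.1 and 20.7 TPM in control mice and at 4.36, 3.36, 4.65, 3.57 and 4.92 TPM in IF mice. The groups were far apart, with a log2 difference of -2.90 (SE 0.23, adjusted p = 7.90e-08 in limma). Cd36 stayed low in PBMC mice (3.08 to 5.15 TPM) and PBMC-hCG mice (3.92 to 6.40 TPM). Control replicate 2, with its adipose markers, was at 36.0 TPM, and the other 4 controls had a mean of 32.8 ± 14.3 TPM (SD, n = 4).

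Itgb3, the integrin beta 3 chain that pairs with alpha v to bind fibronectin, periostin and thrombospondins, rose from 29.2 to 34.9 TPM in control mice to 69.8 to 90.6 TPM in IF mice. The log2 difference was 1.30 (SE 0.16, adjusted p = 1.85e-05 in limma). Its partner Itgav rose by 0.50 (SE 0.11, adjusted p = 0.00287), and Itga9, whose product binds tenascin-C, by 0.68 (SE 0.12, adjusted p = 0.000526). Cd47, encoding another thrombospondin 1 receptor, went opposite to Cd36, with a rise of 0.36 (SE 0.07, adjusted p = 0.00126 in limma). In PBMC-hCG mice Itgb3 was at 75.5, 42.2, 39.9, 48.3 and 48.2 TPM, so that replicate 1, the library with high Tnc, was the one within the IF range.

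Of the other SPARC relatives, Smoc1 and Spock2 fell and Smoc2 rose between IF and control mice. Smoc1 was at 139.7 to 178.7 TPM in control mice but 36.2 to 57.8 TPM in IF mice, a log2 difference of -1.76 (SE 0.13, adjusted p = 3.79e-08 in limma). Spock2 fell by 0.91 on the log2 scale (SE 0.14, adjusted p = 0.000103) and Smoc2 rose by 0.55 (SE 0.09, adjusted p = 0.000182). The sign therefore differed among relatives of Sparc, itself uncalled. Of the fibulins, Fbln2 (0.69, adjusted p = 0.015) and Fbln1 rose and Efemp1 (-0.56, adjusted p = 0.00648) and Hmcn1 (-0.66, adjusted p = 0.0343) fell in limma. The call of Fbln1 was kept in 10 and that of Hmcn1 in 9 of 19 alternatives, and the latter was lost without control replicate 1, 3, 4 or 5 or IF replicate 1, 2, 4 or 5. That of Fbln1 was lost without control replicate 1, 3 or 4 or IF replicate 2, 3 or 5.

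Tgfbi, whose product has fasciclin domains as periostin does, went opposite to Postn. It was at 99.2, 278, 119, 116 and 125 TPM in control mice and 206 to 329 TPM in IF mice, a log2 difference of 0.97 (SE 0.20, adjusted p = 0.00222 in limma). Control replicate 2 was the one control within the IF range. Among proteoglycans related to decorin, 2 of 8 tested rose: Lum, encoding lumican, by 0.88 (SE 0.20, adjusted p = 0.00371) and Podn by 0.69 (SE 0.22, adjusted p = 0.031). The call of Podn was kept in 11 of 19 alternatives and lost without control replicate 1, 4 or 5 or IF replicate 1, 3 or 5. The other 6 were not called. Edil3, an integrin ligand at low level (0.663 TPM in control and 1.74 TPM in IF mice), rose by 1.27 (SE 0.27, adjusted p = 0.00245). None of the 5 CCN genes tested was called.

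**Figure D4:**
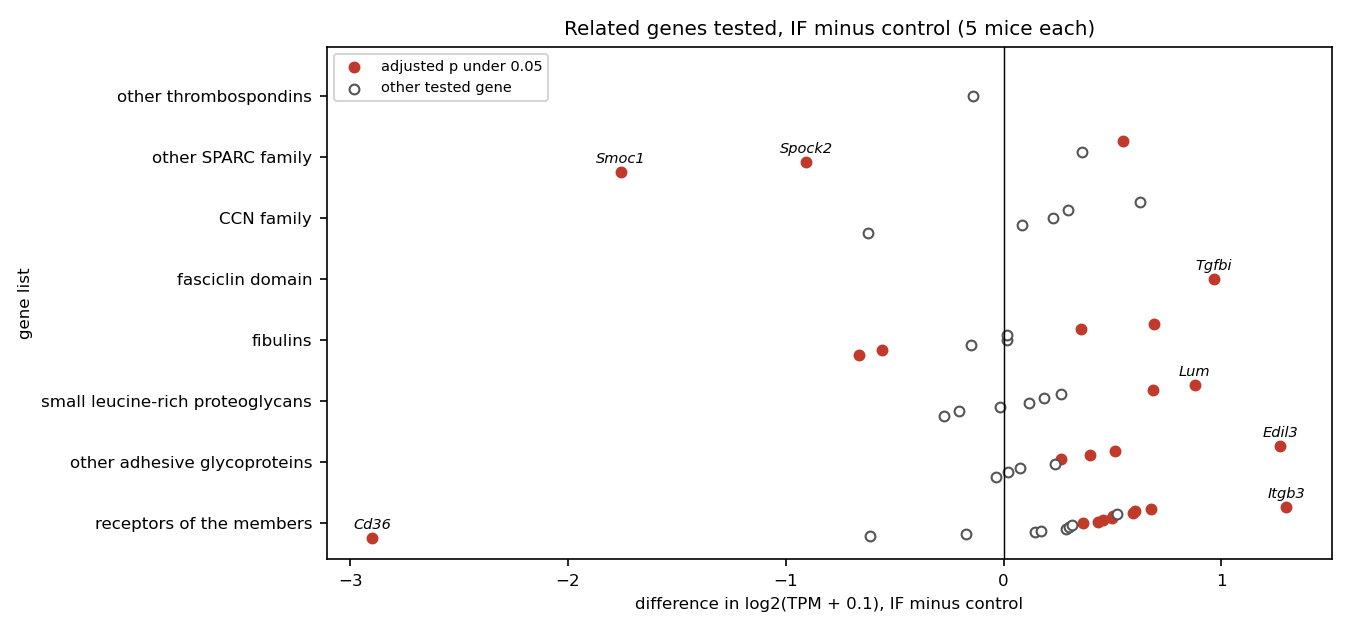
Log2 differences of IF minus control for the 52 related genes tested, one point per gene in rows by gene list, with filled points for an adjusted p-value under 0.05 in limma. Of these, 19 are above 0 and 5 below, with Cd36 at -2.90 and Itgb3 at 1.30 as the extremes.

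Between PBMC-hCG and IF mice 4 of 52 tested related genes rose and 7 fell, beside 7.61% and 5.99% of all tested genes. The falls were Ccn4 (-1.16, SE 0.38, adjusted p = 0.0483), Sdc1 (-0.83, SE 0.21, adjusted p = 0.0287), Itga5 (-0.77, SE 0.22, adjusted p = 0.0372), Fbln2 (-0.67, SE 0.19, adjusted p = 0.0359), Itgb3 (-0.67, SE 0.16, adjusted p = 0.0287), Calr and Itga9 in limma. Sdc1, Itga5, Itgb3, Calr and Itga9 are among the 18 genes listed as receptors, of which 5 fell and none rose. Of these, Calr encodes the chaperone calreticulin, which is not itself a receptor. The rises were Hmcn1 (0.67, adjusted p = 0.048), Nid2 (0.59, adjusted p = 0.0307), Efemp1 (0.57, adjusted p = 0.0287) and Matn2 (0.36, adjusted p = 0.0279) in limma. As for the members, leaving out IF replicate 2, 4 or 5 or PBMC-hCG replicate 2, 3, 4 or 5 left none of the 11 called, and Ccn4 and Hmcn1 were also not called without IF replicate 1. In PBMC minus IF and in PBMC-hCG minus PBMC none was called by limma, and 3 and 10 related genes had a raw p-value under 0.05.

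Against control mice, 19 related genes rose and 3 fell in the PBMC group, and 20 rose and 4 fell in the PBMC-hCG group. Over all tested genes these shares were 12.8% and 6.7% in the PBMC group and 20.2% and 11.6% in the PBMC-hCG group. The largest rises in PBMC mice were Edil3 (1.39, adjusted p = 0.00134), Tgfbi (1.17, adjusted p = 0.0005), Podn (1.07, adjusted p = 0.00194), Lum (1.05, adjusted p = 0.001) and Itgb3 (1.04, adjusted p = 0.000211) in limma, and the falls were Cd36 (-3.00), Smoc1 (-1.74) and Spock2 (-0.83). In PBMC-hCG mice they were Edil3 (1.72, adjusted p = 0.000142), Tgfbi (1.44, adjusted p = 5.19e-05), Lum (1.19, adjusted p = 0.000224), Ccn3 (1.17, adjusted p = 0.00892) and Podn (0.99, adjusted p = 0.00232) in limma, and the falls were Cd36 (-2.62), Smoc1 (-1.54), Calr (-0.75) and Spock2 (-0.53). Cd36, Smoc1 and Spock2 fell against control in all 3 groups.

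**Figure D5:**
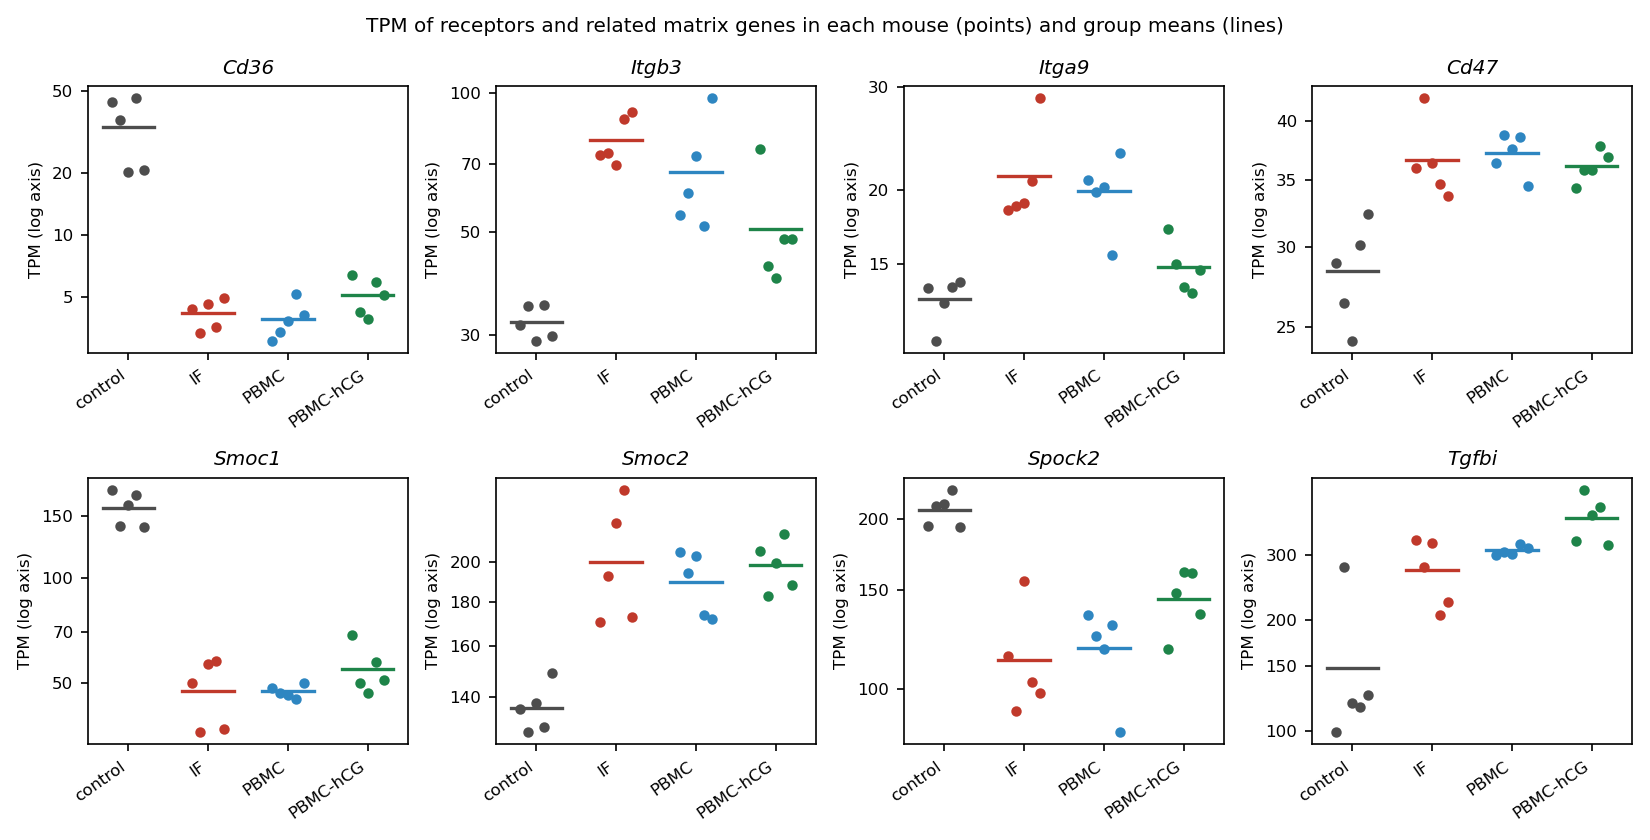
TPM (log axis) of 4 receptors and 4 related matrix genes in each of the 20 mice by group, with points for mice and lines for group means. Cd36 lies at 20.2 to 46.1 TPM in control mice and at 3.08 to 6.40 TPM in all others, and Itgb3 and Itga9 are lower in PBMC-hCG than in IF mice apart from replicate 1 for Itgb3.

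Motifs were searched on both strands in the 300-base promoters (250 before to 50 after the start) of the 6 members with an entry, Tnc, Tnxb, Thbs2, Thbs4, Postn and Sparc, which have 8 promoters in all, and in all 32851 RefSeq promoters. The half-site AGAACA of the progesterone and glucocorticoid receptors was in 2 of 8 (Sparc and Tnxb), beside 19.0% of all promoters. The estrogen receptor half-site AGGTCA was in 2 of 8 (Postn, at its other start, and Tnxb), beside 16.3%. Neither was found in the Tnc windows, which says only that these letters are not in them. CAGACA was in 5 of 8 (Tnc, Thbs2, Thbs4 and Sparc), beside 21.0%, and TATAAA in 4 of 8 (Tnc, Postn and Thbs2), beside 13.6%. GGGCGG was in 3 of 8 beside 35.7%, the AP-1 site TGANTCA in 1 (Tnxb) beside 7.81%, the CRE half-site TGACG in none beside 20.8%, and the NF-kB site in 1 (Thbs2) beside 4.51%. The windows of the 2 Tnc starts overlap, so their matches are in part the same letters, and a match is a description of the sequence.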

How the data were processed

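Uterine tissue of 20 mice was measured by RNA-seq of stranded, polyadenylated RNA. The values the authors deposited are TPM per gene. Per the labels and the submitters' processing notes, reads were trimmed with Trimmomatic, aligned to mm10 with HISAT2 and assembled with StringTie; versions are not given in the sources used here. The deposited TPM table holds no counts, so the exact test of edgeR that the authors ran was not repeated and no interval that needs read depth is given. Groups and replicates came from the labels, and no 2 columns were identical. The labels name no sequencing batch.

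Values were transformed to log2(TPM + 0.1), a scale that understates changes of low genes. Genes with a value above 0 in every library (18706) entered 1 limma fit (limma 3.58.1, R 4.3.3) over all groups with a variance trend, with Benjamini-Hochberg adjustment of p-values separately in each of 6 comparisons. The fit was tested on simulated data. The p-values and SEs rest on 1 variance per gene, pooled over the mice of all 4 groups and moderated by the trend. A group with a wide spread thus also widens the SE of comparisons that leave it out. For Sparc the SD on the log2 scale was 0.58 in control, 0.17 in IF and 0.05 in PBMC mice. The pooled SE of PBMC minus IF was 0.18. Whether a gene was called between groups given RU486 can therefore depend in part on the control mice.

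The members, and the lists of 61 related genes and of cell type markers, were chosen with earlier results of these data known. Named were all 10 members, per comparison the 5 largest rises and 5 largest falls among related genes with an adjusted p-value under 0.05 and a mean of at least 1 TPM, and per member the 3 most alike genes. Receptors and relatives named beyond this, and the libraries shown for them, were chosen after their values were seen. Alternatives were pseudocounts of 0.01 and 1, filters, scalings, no variance trend, the replicate number as a block, fits of 2 groups, the study's 2-fold criterion with a raw p-value under 0.05, and each mouse left out. Positions and promoters are from RefSeq (GRCm38.p6) and exons from GENCODE on the same assembly. Protein sequences were not used here. Python 3.11.15, pandas, numpy and matplotlib served for tables and figures.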

Additional observations from a re-analysis of the deposited data

Results flagged for a closer look

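In 40 sets of 5 values (10 genes in 4 groups), 6 held a mouse far from the others, with a gap to its nearest neighbour above 0.71 of the range. For independent, normally distributed values about 1 in 20 sets would pass. TPM need not be normal and the sets share libraries, so the 6 are not compared with that rate. Tnc was at 94.2 TPM in PBMC-hCG replicate 1, against 10.4 to 23.6 TPM in the rest of its group. Thbs4 was at 9.47 TPM in PBMC replicate 1. Control replicate 2 was low for Sparc (1214 TPM) and Fn1 (105 TPM), and its adipose markers are given in the report. Sparcl1 was at 1168 TPM in IF replicate 3, the IF mouse lowest in Tnc. Fn1 was at 374 TPM in PBMC-hCG replicate 4, the mouse of that group lowest in Tnc.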

How the results depend on the processing

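The log2 differences of the members moved by less than 1 SD in all 1140 recomputed values and no called difference changed sign. The first result was largely fixed in advance. Leaving out 1 of 5 mice cannot shift a difference by 1 SD, and filters, variance trend, block and fits of 2 groups leave it unchanged. Counts moved by over 1.5 times as follows; except where fewer mice or other genes entered the fit, the cause was not tested. By the study's criterion (2-fold and raw p-value under 0.05) members called were 2 in IF minus control, 1 in PBMC-hCG minus IF, 1 in PBMC-hCG minus PBMC, 3 in PBMC minus control and 2 in PBMC-hCG minus control, and related genes 4, 1, 1, 7 and 6. The share of all tested genes that met this criterion was not computed, so nothing is read from these counts. Without a filter beyond a value above 0 (30695 genes), PBMC-hCG minus IF called 0 members and 5 related genes, beside 2.65% of all genes. With only the 2 groups fitted, 15 related genes were called in IF minus control, beside 13.2% of all tested genes. In that setting PBMC-hCG minus IF gained the call of Postn and lost that of Tnc. The calls of Postn in IF minus control and PBMC minus control were also lost, and Tnxb was called in PBMC-hCG minus control. With 1 mouse left out at a time, members called ranged from 0 to 3 in PBMC-hCG minus IF, where the 0 arose in 7 of 10 cases, and from 4 (without control replicate 5 or PBMC replicate 1 or 2) to 7 in PBMC minus control. Related genes ranged from 0 to 16 in PBMC-hCG minus IF. The share of all tested genes called there ranged as widely, from 0% (without IF replicate 5) to 27.1% (without IF replicate 3). In PBMC minus control it was 15.8% (without PBMC replicate 2) to 24.7% (without control replicate 2). Nothing is read from these counts about the members. Same-numbered libraries had correlations of deviations of -0.247 to 0.457, above 0.1 in 8 of 30 pairs. Replicate 5 had 0.396 for IF with control, 0.457 for PBMC with IF and 0.272 for PBMC with control. With replicate 5 of PBMC-hCG mice these had -0.0896 to -0.0591. Whether some same-numbered mice share a batch or cohort cannot be told from these values. With the replicate block, 5 members and 23 related genes were called in IF minus control, beside 22.2% of all tested genes. In PBMC-hCG minus IF 2 and 11 were called, beside 17.2%. The block removed the call of Thbs1 and added that of Tnxb in PBMC-hCG minus control. It also removed those of Podn in IF minus control, Hmcn1 in PBMC-hCG minus IF and Fstl1 and Fbln1 in PBMC minus control. Scalings shifted the median of all genes by at most 0.066. TPM carry no read depth, so the precision of low genes such as Thbs4 is unknown.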
